A study of Rattus norvegicus with 18 samples.

Results

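The cytochrome P450 family was followed in rat liver through partial hepatectomy and liver denervation. Its members were the genes whose probe sets carry a single symbol beginning with Cyp, a family number and a letter. Cyp1a1, Cyp1a2, Cyp7a1, Cyp8b1 and Cyp27a1 were not included. Where a gene had several probe sets, the one with the highest mean over all arrays stood for it. This gave 50 genes of the 14022 genes named alone on the array, and 42 of the 50 were bright enough to be tested. The other 8 were Cyp11b1, Cyp11b3, Cyp21a1, Cyp2a3, Cyp2b12, Cyp2b21, Cyp46a1 and Cyp4f5, whose signals were at most 136.6 on any array.

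Cytochrome P450 enzymes are heme proteins of the endoplasmic reticulum and the mitochondria that use oxygen and electrons from a reductase to oxidise their substrates. In hepatocytes the CYP2 and CYP3 families oxidise drugs and steroids, CYP4 enzymes hydroxylate fatty acids, and other families act on sterols, retinoids and vitamin D. Several rat genes of the CYP2 and CYP3 families are known to differ between male and female liver under the control of growth hormone. Many P450 genes are transcribed through nuclear receptors and liver-enriched factors such as HNF4 and HNF6.

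Livers came from Sprague-Dawley rats aged 12 weeks, on 18 one-colour Affymetrix Rat Genome 230 2.0 arrays with 3 arrays in each of 6 groups. The SPH group had its sympathetic nerves cut together with partial hepatectomy, the VPH group had its vagus cut together with partial hepatectomy, and the TDPH group had a total liver denervation together with partial hepatectomy. The PH group had partial hepatectomy with its nerves intact, the sham group had the control operation, and these 5 groups were taken at 2 h. The normal group was taken at 0 h. All rats were given the same strain and age in the labels, all livers were flushed of blood through the portal vein, and the piece taken was the middle of the right lobe. Arrays of the same group are numbered as technical replicates in the labels, and the number of animals and their sex are not given in the sources used here. SDs and p-values therefore measure the spread between arrays, which may be technical, and n counts arrays. In every comparison below, operation and animal cannot be told apart.

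Promoters are shown for 4 members on which the results below turn and for which a sequence was at hand. Cyp3a9 was the bright member with the widest fall after hepatectomy. Cyp2c11 and Cyp2c12 are known as the male and the female CYP2C of rat liver. Cyp4a3 was the member with the largest F statistic over the groups, which weighs differences against the spread between arrays. Each window runs 5′ to 3′ from 250 bases before to 50 bases after the gene start, taken from RefSeq on build GRCr8. The Cyp3a9 window is chr12:21960111-21960410 on the minus strand, Cyp2c11 is chr1:246174966-246175265 on the plus strand, Cyp2c12 is chr1:248676985-248677284 on the minus strand and Cyp4a3 is chr5:134352187-134352486 on the minus strand. Capitals mark matches on either strand to the TATA box (TATAAA), the nuclear receptor motif (AGGTCA), the forkhead motif (TGTTTAC) or the STAT motif (TTCNNNGAA), and no matches overlapped.
Cyp3a9: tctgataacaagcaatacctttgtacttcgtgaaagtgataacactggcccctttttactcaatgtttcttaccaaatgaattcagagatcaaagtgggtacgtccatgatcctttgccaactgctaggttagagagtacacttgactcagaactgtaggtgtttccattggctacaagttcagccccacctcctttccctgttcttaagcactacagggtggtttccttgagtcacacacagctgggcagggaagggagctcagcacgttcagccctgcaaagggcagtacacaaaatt
Cyp2c11: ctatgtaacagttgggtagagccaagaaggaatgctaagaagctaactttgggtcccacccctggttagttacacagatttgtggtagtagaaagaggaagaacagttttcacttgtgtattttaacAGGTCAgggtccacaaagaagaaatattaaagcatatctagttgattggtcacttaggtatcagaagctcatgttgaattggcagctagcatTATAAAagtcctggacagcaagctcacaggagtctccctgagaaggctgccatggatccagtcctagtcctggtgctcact
Cyp2c12: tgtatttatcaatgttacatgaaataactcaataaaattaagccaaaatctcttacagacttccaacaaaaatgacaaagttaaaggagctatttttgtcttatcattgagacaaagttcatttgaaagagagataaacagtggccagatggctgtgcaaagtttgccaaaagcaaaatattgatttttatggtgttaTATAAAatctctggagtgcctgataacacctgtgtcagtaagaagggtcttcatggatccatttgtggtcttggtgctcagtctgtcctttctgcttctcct
Cyp4a3: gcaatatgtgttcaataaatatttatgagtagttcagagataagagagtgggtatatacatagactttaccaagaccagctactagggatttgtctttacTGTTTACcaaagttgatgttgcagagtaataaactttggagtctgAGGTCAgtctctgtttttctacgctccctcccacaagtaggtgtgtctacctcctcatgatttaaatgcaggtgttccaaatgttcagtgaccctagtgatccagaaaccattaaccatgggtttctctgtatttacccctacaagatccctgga

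The Cyp2c11 window held 1 TATA box and 1 nuclear receptor motif, the Cyp2c12 window 1 TATA box, and the Cyp4a3 window 1 forkhead and 1 nuclear receptor motif. None of the 4 motifs was in the Cyp3a9 window. Of 33469 promoter windows of 300 bases in the table, 14.2% held the TATA box, 16.2% the nuclear receptor motif, 3.78% the forkhead motif and 8.87% the STAT motif. Among the 41 members in the table the shares were 26.8%, 31.7%, 9.76% and 12.2% in that order of motifs. These matches describe letters only.

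Signals below are the deposited intensities on a linear scale, on which every array has the same trimmed mean of 500. Differences are of log2(signal + 12), so that 1 is a 2-fold difference, and fold values understate the change of dim genes. P-values are from limma fitted to all 18 arrays and adjusted by Benjamini-Hochberg over 22125 probe sets. Each gene has 1 estimate of spread, shared by all groups. A gene that varies within 1 group therefore has a wider SE in every comparison. A gene passed the test at an adjusted p under 0.05, and it was called where it also differed at least 2-fold. Probe sets bind with different strength, so levels are compared only within a gene. In liver tissue, fewer cells of a type and less RNA per cell cannot be told apart.

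The SPH arrays differed among themselves more than the arrays of any other group. The median SD of the tested members was 0.26 on the log2 scale in SPH, against 0.04 to 0.10 in the other 5 groups. Among the tested members 22 spanned more than 0.5 across the SPH arrays, against 4 to 9 in the other groups. Several sex-dependent members, listed as such after these values were seen, had their lowest or highest SPH signal on replicate 1. Cyp2c11 was at 23358 on SPH replicate 1 and at 35678 and 39051 on the other SPH arrays. Cyp2a2, a testosterone hydroxylase more abundant in male rat liver, was at 3296 there and at 9715 and 11816 on the others. Cyp3a2, also male-predominant, was at 18268 there, against 32928 and 35418. Cyp2c12 ran the other way, at 48628 on SPH replicate 1 and at 37282 and 24060 on replicates 2 and 3, so that replicate 3 lay farther from the middle array than replicate 1 did. Cyp2a1, female-predominant, was at 23482, against 17575 and 17374. Cyp3a9, also female-predominant, did not follow, at 7376 on SPH replicate 1 and at 4551 and 9045.5 on replicates 2 and 3.

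Genes outside the family moved on the same array. Eif2s3y, a gene of the Y chromosome, was at 352 on SPH replicate 1, at 1279 and 1099 on the other SPH arrays, and between 755 and 1369 on the 15 arrays of the other groups. Obp3, a male-predominant secreted protein of rat liver, was at 4900 on SPH replicate 1 and at 10744 and 14772 on the other SPH arrays. Summed signals of marker lists, in which the brightest genes weigh most, also differed between the SPH arrays. The neutrophil list gave 41561, 25283 and 19726 on SPH replicates 1, 2 and 3, the lymphocyte list gave 7191, 8927 and 21072, and the red cell list gave 15701, 26987 and 12973. The part of sex or of cell makeup in these differences was not tested. Members' differences in SPH are given below with and without replicate 1, and the counts with arrays centred or quantile normalized are given with all SPH arrays only.

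**Figure D1:**
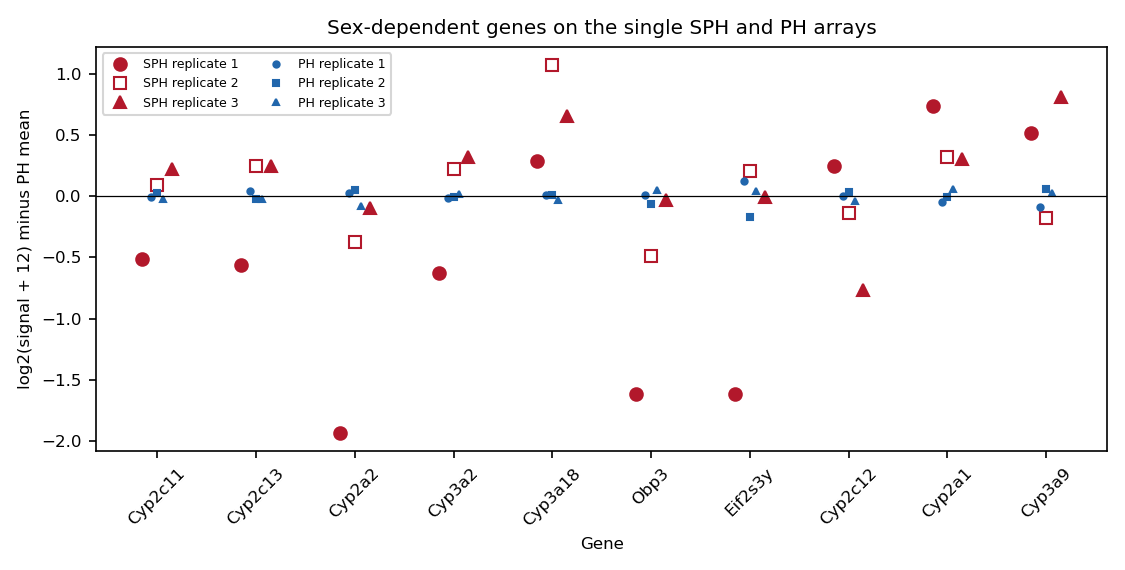
Log2(signal + 12) minus the PH mean for 8 sex-dependent P450 genes, Obp3 and Eif2s3y (horizontal axis) on each SPH array and each PH array. Among the SPH arrays, replicate 1 lies lowest for Cyp2c11, Cyp2c13, Cyp2a2, Cyp3a2, Cyp3a18, Obp3 and Eif2s3y and highest for Cyp2c12 and Cyp2a1. For Cyp3a9 it lies between the other SPH arrays, and the PH arrays lie close together.

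The heat map of all tested members shows the groups side by side. Columns of VPH, TDPH, PH, sham and normal arrays are alike within each group for most bright genes, and dim genes such as Cyp11a1 and Cyp2g1 vary within groups.

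**Figure D2:**
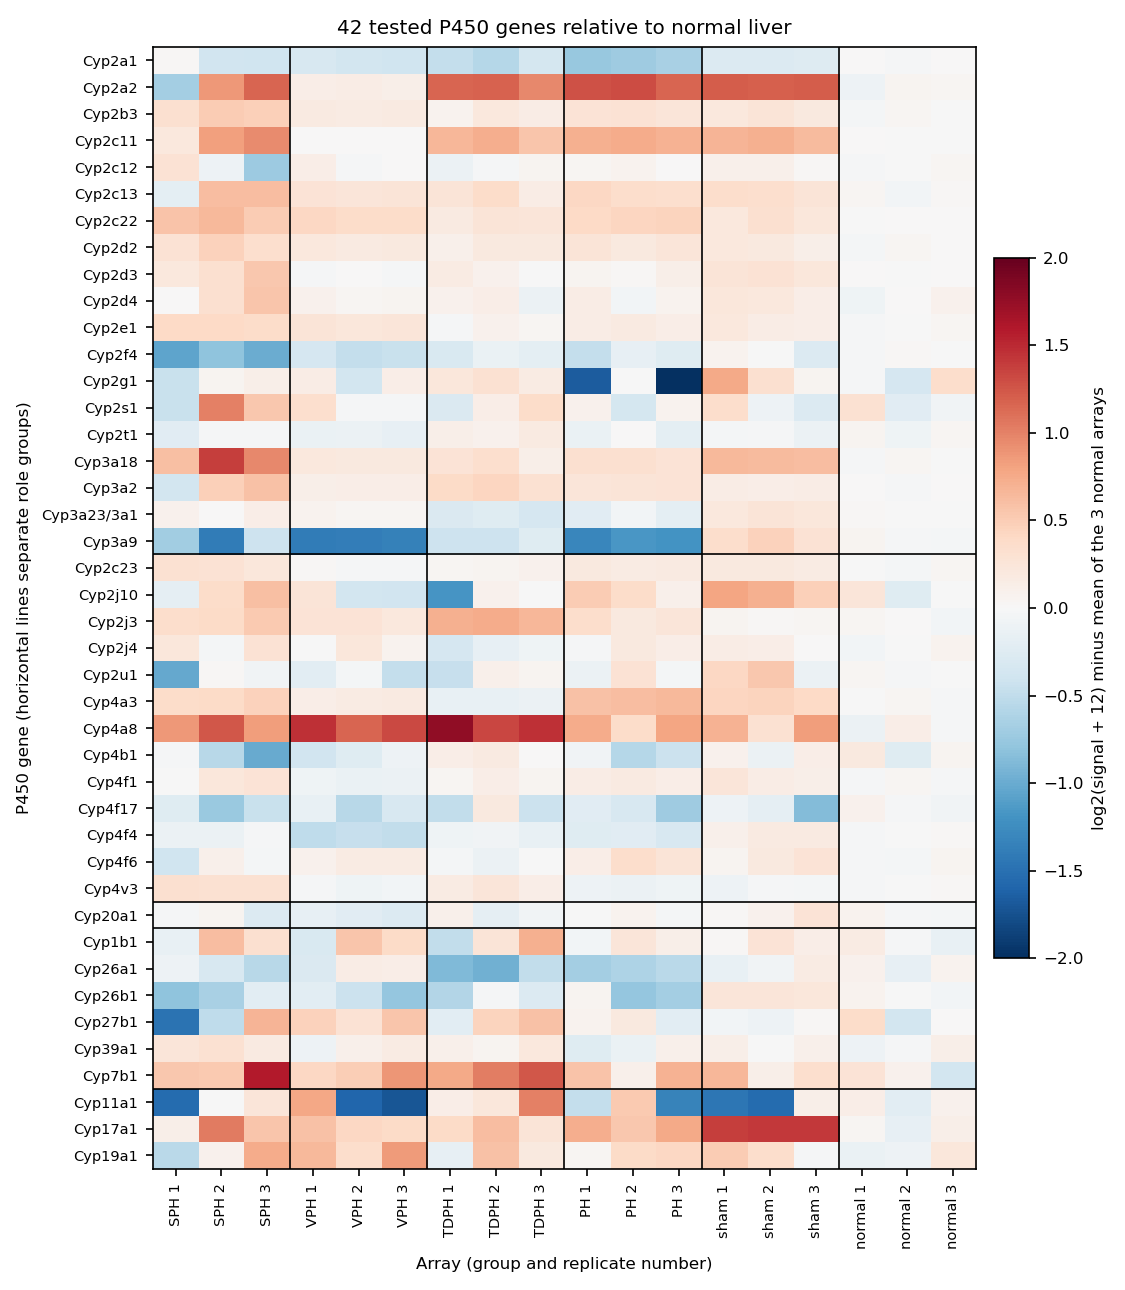
Log2(signal + 12) minus the mean of the 3 normal arrays for 42 P450 genes (rows, grouped by role) on 18 arrays (columns). Red is above normal, blue is below, and colours end at 2 and -2. Cyp3a9 is blue in SPH, VPH, TDPH and PH, and Cyp2a2 and Cyp2c11 are red in TDPH, PH and sham and near white in VPH.

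The comparison of PH with sham sets arrays after partial hepatectomy against arrays after the control operation. After hepatectomy 9 of the 42 tested members fell and 3 rose, and 2 were called, both lower. The fall of Cyp3a9 was the widest among the bright members, to 0.333 of the sham level. Cyp17a1, Cyp26a1, Cyp2a1, Cyp4f4, Cyp3a23/3a1, Cyp3a18 and Cyp2d3 fell by less than 2-fold. Cyp2j3, Cyp4a3 and Cyp2c22 rose slightly. Of all 22125 probe sets 8.75% rose, 13.6% fell and 4.37% were called, and the median difference was -0.04 among the members and -0.11 among all probe sets.

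In the drug and steroid group of the CYP2 and CYP3 families, 6 of 19 tested members fell and 1 rose. Cyp3a9, a steroid hydroxylase of the CYP3A subfamily that is female-predominant in rat liver, was at 4858, 5376 and 5258 on the PH arrays, against 15377, 16585 and 14634 on the sham arrays. The groups did not overlap, and all PH arrays were lower. It fell by 1.59 on the log2 scale (SE 0.14, adjusted p = 8.77e-08, limma). Cyp3a23/3a1, the inducible CYP3A enzyme, averaged 25390 ± 1600 in PH and 33290 ± 549 in sham (SD, n = 3 each; -0.39, adjusted p = 1.44e-06, limma). Cyp2a1, a testosterone hydroxylase, averaged 14090 ± 532 in PH and 19150 ± 90.4 in sham (-0.44, adjusted p = 0.000355, limma). Cyp3a18 differed by -0.33 and Cyp2d3, a CYP2D enzyme, by -0.19. The probe set shared by Cyp2b1 and Cyp2b2 averaged 4104 ± 60.8 in PH and 6428 ± 99.5 in sham (-0.65, adjusted p = 0.00914, limma). The one shared by Cyp2d1 and Cyp2d5 (-0.12) and the one of Cyp2c7 (0) did not pass. Cyp2c11 (0.04), Cyp2c12 (-0.04), Cyp2a2 (0.04), Cyp3a2 (0.11) and Cyp2e1, the ethanol-oxidising P450 (-0.01), did not pass.

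The other call in PH was Cyp2g1, known from the olfactory mucosa, which is dim in these livers. It was at 15.7, 74.8 and 6.4 on the PH arrays, against 135.4, 97.6 and 78.5 on the sham arrays. All PH arrays were lower, and all were below the 40th percentile of their array. The difference of -1.68 (adjusted p = 0.0107, limma) missed the threshold without PH replicate 3 (adjusted p = 0.0644, limma) and without sham replicate 1 (adjusted p = 0.054, limma). Cyp2g1 was above that percentile on 4 of 18 arrays, so it was tested only because of its higher groups.

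Among the fatty acid enzymes, Cyp2j3, an arachidonic acid epoxygenase, averaged 3587 ± 191 in PH and 3066 ± 46.2 in sham (0.22, adjusted p = 0.00409, limma). Cyp4a3, a fatty acid hydroxylase of the peroxisome proliferator response, averaged 14630 ± 330 in PH and 12790 ± 214 in sham (0.19, adjusted p = 0.000838, limma). Cyp4f4, a hydroxylase of the CYP4F subfamily, fell (4963 ± 162 in PH and 6637 ± 211 in sham, -0.42, adjusted p = 5.81e-07, limma). Cyp4f1 (-0.01) and Cyp4b1 (-0.39) did not pass. The probe set shared by Cyp4a1 and Cyp4a10 differed by -0.45 (adjusted p = 6.61e-05, limma) and the one shared by Cyp4a2 and Cyp4a3 by 0.38 (adjusted p = 0.0385, limma), so CYP4A probe sets went both ways.

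Among enzymes of steroid synthesis, Cyp17a1, the hydroxylase and lyase of androgen synthesis, was at 711, 624 and 726.5 on the PH arrays, against 1131, 1157 and 1156 on the sham arrays. It fell by 0.73 on the log2 scale (adjusted p = 0.00206, limma). Cyp11a1, the cholesterol side chain cleaving enzyme, and Cyp19a1, the aromatase, did not pass. Among retinoid and sterol enzymes Cyp26a1, which clears retinoic acid, was at 696, 722 and 766 on the PH arrays, against 1001, 1062 and 1249 on the sham arrays. That is a fall of 0.59 on the log2 scale (adjusted p = 0.00409, limma). Cyp7b1, the oxysterol hydroxylase (0.08), Cyp39a1, which hydroxylates an oxysterol of the brain (-0.17), and Cyp1b1, an oxidase of estrogens (-0.04), did not pass.

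Several marker lists moved in this comparison too. The neutrophil list summed to 11752 to 12360 in PH and to 1841 to 2039 in sham, with 4 of 5 tested markers higher. The hepatocyte list, which opens with Alb and Ttr, summed to 393039 to 410845 in PH and to 375505 to 400024 in sham, with 1 of 8 higher. The lymphocyte list summed to 8177 to 8454 in PH and to 3060 to 3371 in sham, with 2 of 6 higher, and the stellate cell list to 5011 to 5176 in PH and to 2095 to 2484 in sham, with 3 of 6 higher. Their part in the P450 differences was not tested. Of the 12 members that passed, 3 missed the threshold in at least 1 fit without an array of these groups, namely Cyp3a18 (in all 6 such fits), Cyp2d3 and Cyp2g1. The direction split depends on scaling, at 3 higher and 9 lower as reported, 4 and 6 with arrays centred on the median, and 1 and 10 after quantile normalization. Centring moved the median of all probe sets to 0.05.

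**Figure D3:**
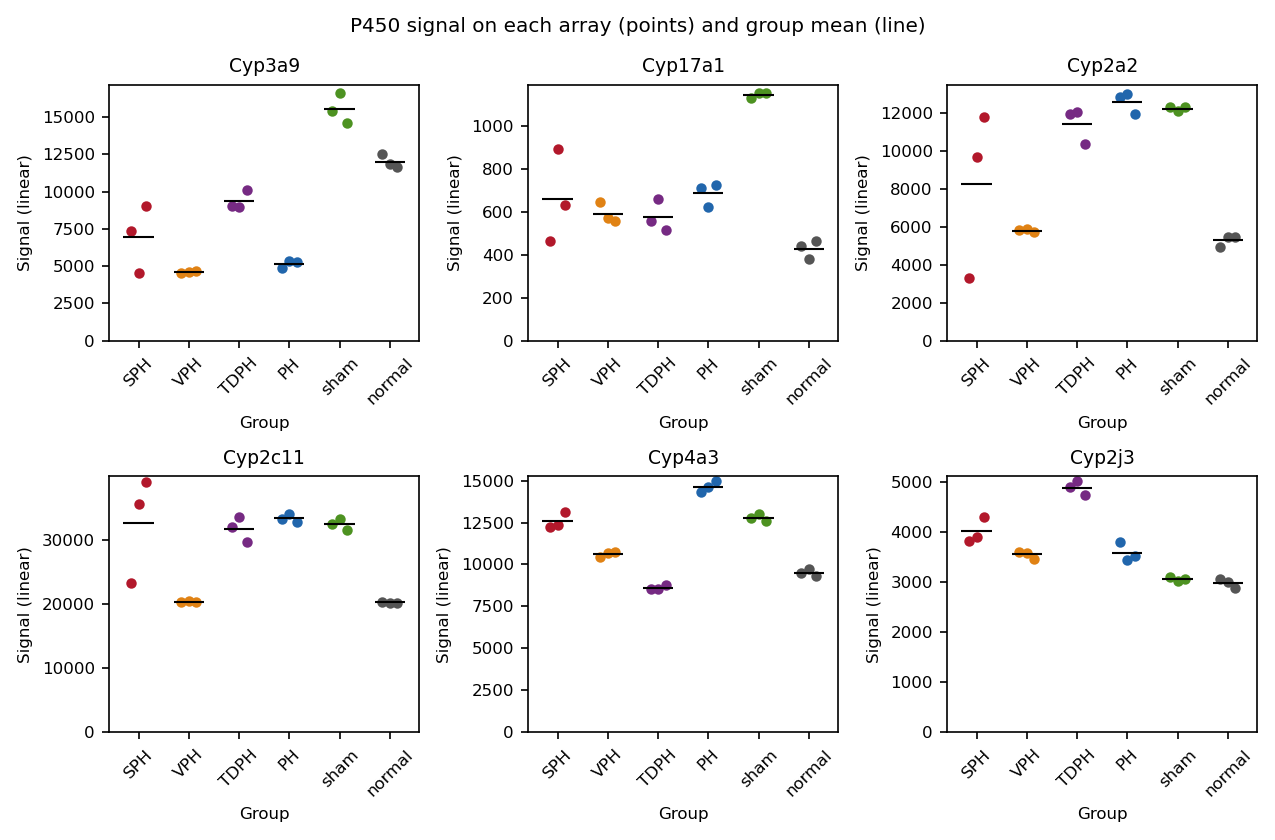
Signal on a linear scale on each array (points) and group mean (lines) for Cyp3a9, Cyp17a1, Cyp2a2, Cyp2c11, Cyp4a3 and Cyp2j3 in 6 groups (horizontal axis). Cyp3a9 is lowest in PH, VPH and SPH replicate 2, Cyp2a2 and Cyp2c11 are low in VPH and normal, and Cyp4a3 is lowest in TDPH.

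The comparison of sham with normal covers the operation and the 2 h after it, with the liver left whole. In sham 14 of 42 members rose and 1 fell, while 7.77% of all probe sets rose and 9.01% fell. The calls went to Cyp17a1 and Cyp2a2, both higher, while 3.02% of all probe sets were called. The median difference was 0.17 among the members and -0.03 among all probe sets.

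Cyp17a1 was at 1131, 1157 and 1156 on the sham arrays, against 440.6, 379.3 and 464.3 on the normal arrays. All sham arrays were higher, with a difference of 1.40 (SE 0.16, adjusted p = 2.08e-06, limma). The authors' deposited table gives Cyp17a1 a mean log2 ratio of 1.51 for sham over normal. The adrenal cortex list, of which 1 gene was bright enough to test, summed to 117 to 213 in sham and to 109 to 166 in normal.

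Cyp2a2 was at 12313, 12126 and 12315 on the sham arrays, against 4958, 5493 and 5449 on the normal arrays. The groups lay far apart (1.21, SE 0.27, adjusted p = 0.00277, limma). Cyp2c11, the male testosterone hydroxylase of the CYP2C subfamily, averaged 32430 ± 843 in sham and 20250 ± 65.2 in normal (0.68, adjusted p = 0.00017, limma). Cyp3a18 averaged 12210 ± 187 in sham and 7871 ± 177 in normal (0.63, adjusted p = 0.00038, limma). Cyp2a1 was the only member that fell (-0.27, adjusted p = 0.0242, limma). Cyp2c12 (0.07), Cyp2c13 (0.31) and Cyp3a2 (0.15) did not pass. Their wide spread among the SPH arrays enters this test. Cyp2c13 averaged 33620 ± 1150 in sham and 27060 ± 1010 in normal. Cyp3a2 averaged 26120 ± 139 in sham and 23610 ± 333 in normal. For both genes all sham arrays were higher, so these results do not show that they stayed level. Obp3 averaged 15500 ± 604 in sham and 3166 ± 36.4 in normal, and Eif2s3y was at 912 to 1157.5 in sham and at 755 to 852 in normal. Prlr, the other sex-dependent gene listed from outside the family, differed by -0.46 and did not pass. The part of sex in these differences was not tested.

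Smaller rises were spread over bright members. Cyp4a3 averaged 12790 ± 214 in sham and 9504 ± 200 in normal (0.43, adjusted p = 7.54e-08, limma). Cyp2d3 (0.26), Cyp2c22, a retinoic acid hydroxylase (0.25), Cyp3a23/3a1 (0.24), Cyp2b3 (0.22), Cyp2c23, an arachidonic acid epoxygenase (0.18), Cyp2d2 (0.17), Cyp4f1 (0.17), Cyp2e1 (0.16) and Cyp4f4 (0.15) rose by less. The hepatocyte list rose in 6 of 8 markers, with a median of 0.23. After quantile normalization 6 members rose and 2 fell, and Cyp2c23, Cyp2d2 and Cyp2e1 turned to small negative differences. Of the shared probe sets, Cyp2b1 with Cyp2b2, the phenobarbital-inducible CYP2B enzymes, averaged 6428 ± 99.5 in sham and 3506 ± 52.7 in normal (0.87, adjusted p = 0.000942, limma). Cyp2d1 with Cyp2d5 differed by 0.29 and the probe set of Cyp2c7 by 0.17. Lymphocyte markers summed to 3060 to 3371 in sham and to 21322 to 22109 in normal, with 4 of 6 tested markers lower. Red cell markers summed to 14756 to 15221 in sham and to 4529 to 4981 in normal, with 2 of 3 higher. Kupffer cell markers summed to 14228 to 15168 in sham and to 19228 to 20075 in normal, with 4 of 6 lower and 1 higher. Their part was not tested. Of the 15 members that passed, 4 missed the threshold in at least 1 fit without a sham or normal array, namely Cyp2a1 (in all 6 such fits), Cyp4f1, Cyp4f4 and Cyp2d2.

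**Figure D4:**
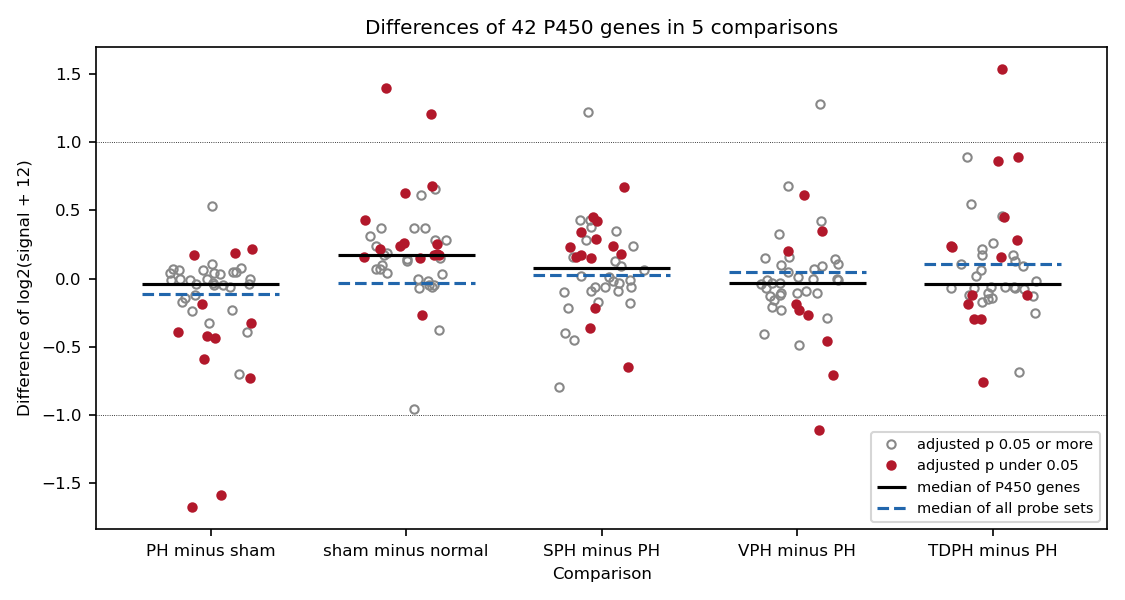
Difference of log2(signal + 12) for each of the 42 tested P450 genes (points) in 5 comparisons (horizontal axis). Filled points passed at an adjusted p under 0.05, solid lines are the median of the P450 genes, dashed lines the median of all probe sets, and dotted lines mark 2-fold. The PH minus sham column reaches lowest, at Cyp3a9 and Cyp2g1, and the sham minus normal column lies mostly above 0.

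The 3 denervated groups were each set against PH, so these comparisons share the PH arrays. Sympathectomy, in SPH, came with 11 members higher and 3 lower of 42, and none was called (7.41% of all probe sets rose, 6.8% fell and 1.49% were called). Without SPH replicate 1 the counts were 16 higher and 4 lower, again with none called. Without SPH replicate 2, Cyp2a2 was called, and without SPH replicate 3, Cyp2a2 and Cyp27b1 were. Without PH replicate 2, Cyp2g1 was, although every SPH and PH array was below the percentile used to filter dim probe sets. The members' median was 0.07, against 0.03 over all probe sets.

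Cyp3a18 was at 11900, 20441 and 15359 on the SPH arrays, against 9830, 9817 and 9550 on the PH arrays. Every SPH array was higher, with a difference of 0.67 (adjusted p = 0.000373, limma), and 0.86 without SPH replicate 1 (adjusted p = 5.69e-07, limma). Cyp4v3, a CYP4 fatty acid hydroxylase, was at 6890, 6870 and 6844 on the SPH arrays, against 5136, 5114 and 5186 on the PH arrays. The SPH arrays lay close together and all were higher (0.42, adjusted p = 1.57e-06, limma, and 0.41 without SPH replicate 1). Cyp2f4, a CYP2F enzyme known from lung, was at 772, 911.5 and 803 on the SPH arrays, against 1150, 1434 and 1356 on the PH arrays. It fell by 0.65 on the log2 scale (adjusted p = 9.12e-05, limma) and by 0.61 without SPH replicate 1.

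Cyp2a1 differed by 0.45 between SPH and PH, and by 0.31 without SPH replicate 1. Cyp39a1 differed by 0.34 in both. Cyp2e1 (0.24, and 0.23 without SPH replicate 1), Cyp2d3 (0.29 and 0.37), Cyp3a23/3a1 (0.23 and 0.22), Cyp4f4 (0.18 and 0.20), Cyp2b3 (0.17 and 0.23), Cyp2j3 (0.16 and 0.20) and Cyp2c22 (0.15 and 0.16) also rose. Cyp4a3 fell by 0.22 and Cyp4f6, a CYP4F hydroxylase, by 0.36. Without SPH replicate 1 Cyp4a3 fell by 0.20, while Cyp4f6 was at -0.21 and no longer passed (adjusted p = 0.0502, limma). Cyp4f6 also missed the threshold without PH replicate 2 (adjusted p = 0.0611, limma). In other fits that left out 1 SPH or PH array, Cyp39a1 (3 of 6 fits), Cyp2j3 (3 of 6) and Cyp2b3 (2 of 6) missed it.

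Replicate 1 decided the direction of Cyp2c11, Cyp2c13 and Cyp3a2, all male-predominant. Of the 5 male-predominant members listed, 4 were below 0 with all arrays, and only 1 passed, higher. Without SPH replicate 1, 4 passed higher and 1 lower. Cyp2c13 was at 23641 on SPH replicate 1 and at 41431 and 41324 on the others, against 35989, 34449 and 34291 on the PH arrays. The Cyp2c13 probe set is of a type that may bind several transcripts. Cyp2a2 had the lowest difference of the 5 (-0.8) and did not pass with all arrays. Cyp2c11 differed by -0.06 between SPH and PH (adjusted p = 0.78, limma), and by 0.16 without SPH replicate 1 (adjusted p = 0.022, limma). Cyp3a2 differed by -0.03, and by 0.27 without it (adjusted p = 9.21e-05, limma). Cyp2c12 differed by -0.22, by -0.45 without replicate 1 (adjusted p = 0.00686, limma) and by 0.06 without replicate 3 (adjusted p = 0.714, limma), so its direction rested on single arrays. Cyp3a9 was at 7376, 4551 and 9045.5 on the SPH arrays, which overlapped the PH arrays (0.38, adjusted p = 0.0902, limma). Its difference was 0.31 without replicate 1 (adjusted p = 0.225, limma), 0.66 without replicate 2 (adjusted p = 9.29e-06, limma) and 0.17 without replicate 3 (adjusted p = 0.429, limma), so among these fits it passed only without replicate 2. The hepatocyte list was higher in SPH in 7 of 8 markers, summing to 455868 to 494959 in SPH and to 393039 to 410845 in PH. The neutrophil list summed to 19726 to 41561 in SPH and to 11752 to 12360 in PH, with 4 of 5 markers higher. Without SPH replicate 1, 8 hepatocyte and 3 neutrophil markers were higher. Their part was not tested. With arrays centred on the median 3 members rose and 4 fell.

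Vagotomy, in VPH, came with 3 members higher and 6 lower of 42, while 6.04% of all probe sets rose and 5.93% fell. Only Cyp2a2 was called, lower, while 1.79% of all probe sets were called. Members of the fatty acid group that passed were all lower (4 of 13), and the median of all members was -0.03, against 0.05 over all probe sets.

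Cyp2a2 was at 5827, 5873 and 5751 on the VPH arrays, against 12854, 13035 and 11943 on the PH arrays. The groups did not overlap, and it fell by 1.11 on the log2 scale (SE 0.27, adjusted p = 0.00851, limma). Cyp2c11 was at 20298, 20446 and 20392 on the VPH arrays, against 33286, 34054 and 32820.5 on the PH arrays. This is a fall of 0.71 on the log2 scale (adjusted p = 0.000205, limma). Cyp2a1 rose, averaging 17960 ± 479 in VPH and 14090 ± 532 in PH (0.35, adjusted p = 0.00573, limma). Cyp2c12 (0.00), Cyp2c13 (-0.11), Cyp3a2 (-0.13) and Cyp3a18 (-0.11) did not pass, and here too their wide spread among the SPH arrays enters the test. Obp3 averaged 3952 ± 196 in VPH and 15060 ± 601 in PH (-1.93, adjusted p = 7.57e-06, limma), while Eif2s3y was at 1085 to 1369 in VPH and at 984 to 1205 in PH. Prlr, the other sex-dependent gene listed from outside the family, differed by -0.35 and did not pass. The part of sex was not tested.

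Cyp4a3 averaged 10620 ± 142 in VPH and 14630 ± 330 in PH (-0.46, adjusted p = 1.11e-07, limma). Cyp4f1, a fatty acid hydroxylase (-0.27), Cyp4f4 (-0.23) and Cyp2c23 (-0.19) fell by less. Cyp26a1 was at 916, 1244 and 1221 on the VPH arrays, against 696, 722 and 766 on the PH arrays, so every VPH array was higher (0.61, adjusted p = 0.00591, limma). Cyp3a9 was at 4555, 4582 and 4694 on the VPH arrays and did not pass (-0.16, 95% interval -0.46 to 0.14). Markers of Kupffer cells were higher in VPH in 6 of 6 tested, summing to 23917 to 24350 in VPH and to 15800 to 16146 in PH. Lymphocyte markers summed to 22166 to 22416 in VPH and to 8177 to 8454 in PH. Their part was not tested. With arrays centred on the median 1 member rose and 6 fell. Without PH replicate 2, Cyp2g1 was called as well, although every VPH and PH array was below the percentile used to filter dim probe sets.

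Total denervation, in TDPH, came with 8 members higher and 6 lower of 42, while 10.5% of all probe sets rose and 7.24% fell. The call was Cyp2g1 (1.65% of all probe sets were called), a dim gene at 90.6, 96.1 and 86.3 on the TDPH arrays and at 15.7, 74.8 and 6.4 on the PH arrays. Its difference of 1.54 (adjusted p = 0.0231, limma) missed the threshold in 5 of 6 fits that left out a TDPH or PH array. Only the fit without PH replicate 2 kept the call. Among the TDPH and PH arrays, only TDPH replicate 2 was above the percentile used to filter dim probe sets. Cyp2g1 was therefore tested only because of arrays of other groups, and no change is concluded from this call. The median of the members was -0.04, against 0.11 over all probe sets.

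Cyp4a3 was at 8529, 8557 and 8777 on the TDPH arrays, against 14295, 14639 and 14954 on the PH arrays. The spread within groups was small beside the fall of 0.76 on the log2 scale (SE 0.04, adjusted p = 2.96e-10, limma). The probe set shared by Cyp4a2 and Cyp4a3 fell further, at 16560 ± 1170 in TDPH and 35340 ± 2010 in PH (-1.09, adjusted p = 6.38e-06, limma). The one shared by Cyp4a1 and Cyp4a10 differed by -0.48 (adjusted p = 6.04e-05, limma). Cyp4a8, dim in these livers, differed by 0.89, averaging 215.8 ± 36.6 in TDPH and 110.8 ± 18.7 in PH (adjusted p = 0.00934, limma). The second probe set of Cyp4a8 averaged 198.5 ± 35.9 in TDPH and 83.53 ± 83 in PH and did not pass (1.52, adjusted p = 0.0535, limma). Of the 5 CYP4A probe sets 3 fell, 1 rose and 1 did not pass.

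Cyp3a9 was at 9004, 8988 and 10107 on the TDPH arrays, against 4858, 5376 and 5258 on the PH arrays. It was higher on every TDPH array (0.86, SE 0.14, adjusted p = 0.000297, limma). Cyp2j3 averaged 4890 ± 140 in TDPH and 3587 ± 191 in PH (0.45, adjusted p = 7.6e-06, limma). Cyp4v3 (0.28), Cyp2a1 (0.24), Cyp2t1 (0.23) and Cyp4f4 (0.16) rose by less, although the second probe set of Cyp4v3 gave -0.05. Cyp2j4, a CYP2J epoxygenase (-0.30), Cyp4f6 (-0.30), Cyp2c22 (-0.19), Cyp2c23 (-0.12) and Cyp2e1 (-0.12) fell. The shared probe set of Cyp2b1 and Cyp2b2 averaged 6770 ± 685 in TDPH and 4104 ± 60.8 in PH (0.72, adjusted p = 0.00558, limma). In sham it averaged 6428 ± 99.5. Cyp2c11 (-0.07), Cyp2a2 (-0.14) and Cyp26a1 (-0.17) did not pass. The hepatocyte list was lower in 1 of 8 markers, and the neutrophil list summed to 4910 to 5795 in TDPH and to 11752 to 12360 in PH, with 2 of 5 markers lower. The stellate cell list summed to 3346 to 3699 in TDPH and to 5011 to 5176 in PH, with 2 of 6 lower. Their part was not tested. Of the 14 members that passed, 9 missed the threshold in at least 1 fit without a TDPH or PH array, namely Cyp2a1, Cyp2c23, Cyp2e1, Cyp2g1, Cyp2j4, Cyp2t1, Cyp4a8, Cyp4f4 and Cyp4f6. With arrays centred on the median 3 members rose and 11 fell, which moved the median of all probe sets to -0.05.

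Direct comparisons of the denervated groups test whether their arrays differed. The number of animals is not given, so operation and animal cannot be told apart. Between SPH and VPH 14 members were higher and 1 lower, with none called (9.96% of all probe sets were higher, 10.3% lower and 2.78% called). Without SPH replicate 1 the counts were 18 and 3, and after quantile normalization 8 and 2. Cyp3a18 differed by 0.78, Cyp2c11 by 0.65 and Cyp4f4 by 0.40, which became 0.97, 0.87 and 0.42 without SPH replicate 1. Without SPH replicate 3, Cyp27b1 was called. Cyp2f4 was lower in SPH than in VPH (-0.53, and -0.49 without SPH replicate 1). Cyp2d2, Cyp2j3 and Cyp3a9 passed with all arrays and missed the threshold in at least 1 fit without an SPH or VPH array. Hepatocyte markers were higher in SPH in 7 of 8 (median 0.22, against 0.15 among the members), Kupffer cell markers lower in 6 of 6 and neutrophil markers higher in 3 of 5, with the same counts without SPH replicate 1. The sums were 455868 to 494959 in SPH and 395628 to 418031 in VPH for the hepatocyte list, 16721 to 20389 and 23917 to 24350 for the Kupffer cell list, and 19726 to 41561 and 14358 to 14773 for the neutrophil list. Their part was not tested.

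Between TDPH and SPH 4 members were higher and 12 lower, with none called (8.12% of all probe sets were higher, 6.27% lower and 1.66% called). The counts were 5 and 15 without SPH replicate 1, 2 and 12 with arrays centred, and 3 and 5 after quantile normalization. Without SPH replicate 3, Cyp27b1 and Cyp2a2 were called. Cyp3a18 fell by 0.74 and Cyp4a3 by 0.54 on the log2 scale in TDPH relative to SPH, and by 0.93 and 0.56 without SPH replicate 1. Cyp2f4 was higher in TDPH (0.74, and 0.69 without SPH replicate 1). Cyp3a2 differed by 0.14, and by -0.16 without it. Cyp26a1, Cyp2j4, Cyp2t1, Cyp3a9 and Cyp4v3 passed with all arrays and missed the threshold in at least 1 fit without a TDPH or SPH array. Hepatocyte markers were lower in TDPH in 8 of 8 (median -0.3, and 8 of 8 without SPH replicate 1), summing to 360296 to 395547 in TDPH and to 455868 to 494959 in SPH. Neutrophil markers were called lower in 5 of 5 (median -2.03), summing to 4910 to 5795 in TDPH and to 19726 to 41561 in SPH, and without SPH replicate 1 they were lower in 3 of 5. Their part was not tested.

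Between TDPH and VPH 8 members were higher and 6 lower, and Cyp3a9 was called (12% of all probe sets were higher, 9.02% lower and 2.82% called). It averaged 9367 ± 641 in TDPH and 4610 ± 73.7 in VPH (1.02, adjusted p = 3.64e-05, limma). Without VPH replicate 1, Cyp11a1 was called as well. Cyp2a2 (0.97), Cyp2c11 (0.64), Cyp2j3 (0.46) and Cyp4f4 (0.39) were higher in TDPH. Cyp26a1 (-0.78), Cyp3a23/3a1 (-0.33) and Cyp4a3 (-0.30) were lower in TDPH. Kupffer cell markers were lower in TDPH in 6 of 6 and hepatocyte markers in 2 of 8. Lymphocyte markers were lower in 3 of 6 (median -1.03), summing to 8976 to 9689 in TDPH and to 22166 to 22416 in VPH. Neutrophil markers were lower in 3 of 5 (median -0.93), summing to 4910 to 5795 in TDPH and to 14358 to 14773 in VPH. Their part was not tested. Cyp2j4 and Cyp4f1 passed with all arrays and missed the threshold in at least 1 fit without a TDPH or VPH array.

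Across the 6 groups the order of Cyp4a3 levels was TDPH, normal, VPH, SPH, sham and PH, with the SPH and sham arrays overlapping. For the 3 members with the largest F statistic over the groups, the members with the most similar group means were found by Pearson's r over 6 means, as a description. Cyp4a3 was most like Cyp2j10 (0.825), Cyp2j4 (0.804) and Cyp2c23 (0.735). Cyp2c22 was most like Cyp2d2 (0.981), Cyp2b3 (0.944) and Cyp2e1 (0.901), and Cyp4f4 was most like Cyp3a9 (0.926), Cyp20a1 (0.854) and Cyp26b1 (0.76). The points of each pair come from the same arrays.

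P450 activity needs electrons and heme, and the genes that supply them were followed as well. Of 7 genes of electron supply, 3 rose and 1 fell in sham against normal (7.77% of all probe sets rose and 9.01% fell), led by Por, the reductase that feeds microsomal P450 enzymes. Por was at 5246, 5416 and 5434 on the sham arrays, against 2768, 2830 and 2665 on the normal arrays (0.96, adjusted p = 8.35e-10, limma). In PH against sham 2 of the 7 fell and none rose, while 13.6% of all probe sets fell and 8.75% rose. In SPH against PH 1 rose (1 rose and 1 fell without SPH replicate 1), while 7.41% of all probe sets rose and 6.8% fell. In VPH against PH 2 rose, while 6.04% of all probe sets rose, and in TDPH against PH 2 fell, while 7.24% of all probe sets fell.

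Of 12 genes of heme supply and breakdown, Alas1, the rate-limiting enzyme of heme synthesis in liver, was at 15924, 14966 and 15603 on the TDPH arrays, against 7901, 7973 and 7974 on the PH arrays. All TDPH arrays were higher (0.96, adjusted p = 4.79e-06, limma). Later steps fell in the same comparison, namely Urod (-0.40), Cpox (-0.36), Fech (-0.28) and Alad, the second step (-0.20), and so did Blvrb, which acts on products of heme breakdown (-0.46). In total 1 rose and 5 fell, while 10.5% of all probe sets rose and 7.24% fell. Hmox1, the inducible heme oxygenase, averaged 3188 ± 82.4 in PH and 1763 ± 58.4 in sham (0.85, adjusted p = 3.57e-09, limma). It averaged 1763 ± 58.4 in sham and 1122 ± 71.4 in normal (0.65). In PH against sham 2 of the 12 rose and 2 fell (8.75% and 13.6% of all probe sets), and in sham against normal 1 rose and 2 fell (7.77% and 9.01%). These counts are near those shares. In SPH against PH none rose and 3 fell, also without SPH replicate 1 (7.41% of all probe sets rose and 6.8% fell), and in VPH against PH 4 rose and none fell (6.04% and 5.93%).

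Of 24 tested transcriptional regulators, 10 fell and 4 rose in PH against sham, and 7 were called, while 13.6% of all probe sets fell, 8.75% rose and 4.37% were called. Nr1i3, the receptor CAR that drives CYP2B genes, was at 240.5, 149.4 and 160.5 on the PH arrays, against 524, 605 and 533 on the sham arrays (-1.56, adjusted p = 0.000177, limma). Foxa2 (-1.41), Ahr (-1.14) and Tef (-1.08) were called lower. Nr0b2, the repressor SHP (1.09), was called higher. The other calls, both higher, were dim in sham. Ppara was at 230.8, 159.3 and 120.5 on the PH arrays, against 17.8, 77.9 and 30.1 on the sham arrays, all below the 40th percentile of their array. Ppargc1a was at 200, 279.5 and 325 on the PH arrays, against 48.5, 148.3 and 90.7 on the sham arrays, of which 1 was above that percentile. Both were tested only because of their higher groups, so no fold is given for them. Onecut1, which encodes HNF6, averaged 2047 ± 161 in PH and 4082 ± 153 in sham (-0.99, adjusted p = 6.81e-05, limma). Nr1i2, the receptor PXR that drives CYP3A genes, did not pass (-0.14), and in sham against normal it rose by 0.80 (adjusted p = 2.79e-08, limma).

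In TDPH against PH 9 of the 24 regulators rose and 1 fell, while 10.5% of all probe sets rose and 7.24% fell. Nr1i3 was at 482, 435.5 and 388 on the TDPH arrays, against 240.5, 149.4 and 160.5 on the PH arrays (1.22, adjusted p = 0.00251, limma). Onecut1 averaged 4672 ± 180 in TDPH and 2047 ± 161 in PH (1.19, adjusted p = 1.79e-05, limma). Hnf4a averaged 1709 ± 151 in TDPH and 825 ± 51.8 in PH (1.04, adjusted p = 9.08e-07, limma). The SPH arrays were also above the PH arrays for Hnf4a, at 1510, 1180 and 1365, against 885, 794 and 797. In SPH against PH Onecut1 was called lower, at 767 ± 311 in SPH and 2047 ± 161 in PH, with 2 regulators higher and 4 lower in all. Without SPH replicate 1 its difference was -1.78 (adjusted p = 4.12e-12, limma), against -1.47 with it, and 2 were higher and 5 lower, while 7.41% of all probe sets rose and 6.8% fell with all arrays. In VPH against PH none rose and 3 fell, while 6.04% of all probe sets rose and 5.93% fell. Nr0b2 (-1.18) was called lower, and so was Ppara, at 26.5, 61.4 and 79.4 on the VPH arrays, all below the 40th percentile of their array. In sham against normal 5 rose and 1 fell, while 7.77% of all probe sets rose and 9.01% fell. Bcl6, a repressor of sex-dependent liver genes, was called (1.69), and so was Ppargc1a, which was at 23.3, 39.8 and 9 on the normal arrays, all below that percentile.

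**Figure D5:**
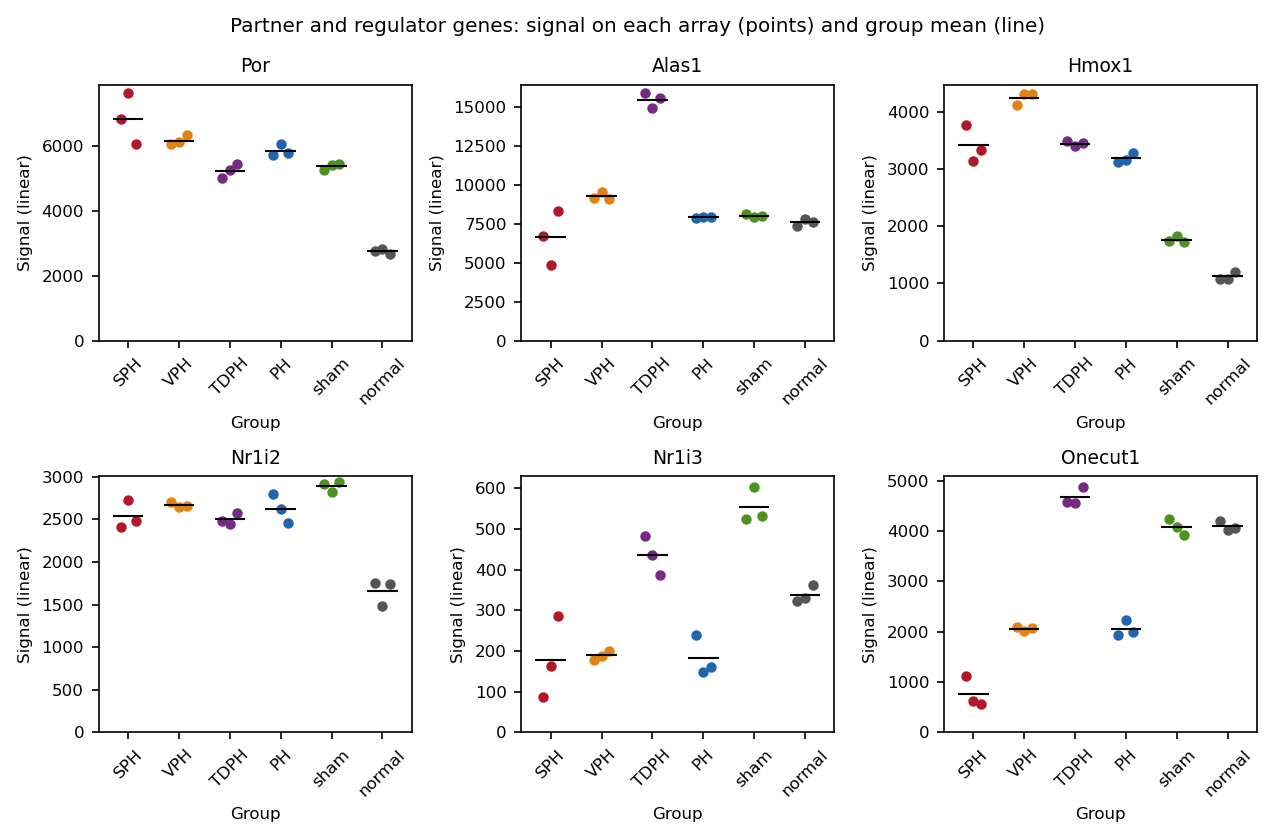
Signal on a linear scale on each array (points) and group mean (lines) for Por, Alas1, Hmox1, Nr1i2, Nr1i3 and Onecut1 in 6 groups (horizontal axis). Por is lowest in normal, Alas1 is highest in TDPH, and Nr1i3 is higher in TDPH than in PH.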

How the data were processed

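Liver RNA of 18 arrays in 6 groups was analysed. The deposited intensity values are on a linear scale, and GCOS 2.0 is named for them in the submitters' processing notes. The authors had scaled the arrays to a common trimmed mean, which is 500 with 2% left out at each end, and the files used here hold no detection or saturation flags, so differences of very bright genes may be compressed. A second deposited table holds the authors' log2 ratios over normal, which were used only where named, and the gene symbols of the array's design. Of 50 member symbols 49 are current and 1 was matched as a synonym.

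After leaving out 57 control probe sets, a probe set was tested if 3 or more arrays had it above their own 40th percentile (22125 were), and log2(signal + 12) was fitted with limma 3.58.1 (lmFit, and eBayes with a trend) in R 4.3.3. The 6 group means left 12 residual and 7.1 prior degrees of freedom. The code was tested on simulated data. The precision is limited by the number of arrays.

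Genes named are the called ones and a fixed list of P450 genes, partners and regulators. Other members were named after their values were seen. The members and lists were chosen with earlier results of these data known, and the sex-dependent lists after these values were seen. Alternatives are in the closing section.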

Additional observations from a re-analysis of the deposited data

Results flagged for a closer look

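The TDPH and VPH arrays, each set against PH, differed for Cyp3a9, the female-predominant CYP3A hydroxylase, by a direct test of the difference. The number of animals is not given, so operation and animal cannot be told apart. TDPH exceeded VPH by 1.02 on the log2 scale (adjusted p = 3.64e-05, limma), with 9004, 8988 and 10107 on the TDPH arrays and 4555, 4582 and 4694 on the VPH arrays. Every TDPH array was higher than every VPH array.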

How the results depend on the processing

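The 185 gene results cover members that passed or were on the fixed list. Of 2339 values recomputed for them, 2101 kept their side of the threshold, with the same direction where both fits passed. Of the rest, 195 lost the threshold, 33 gained it and 10 reversed. Reversals were counted only where the value passed before or after the change. Changes of sign among values that passed in neither fit are therefore not counted. After quantile normalization Cyp2c23 (-0.05), Cyp2d2 (-0.06) and Cyp2e1 (-0.02) reversed in sham against normal, Cyp2c22 (-0.05) in SPH against PH, and Cyp2c22 (-0.01) and Cyp2e1 (-0.04) in SPH against VPH. Without SPH replicate 1, Cyp2c11 (0.16) and Cyp3a2 (0.27) reversed in SPH against PH and Cyp3a2 (-0.16) in TDPH against SPH (over all arrays left out, -0.21 to 0.16, -0.21 to 0.27 and -0.16 to 0.32), and the second probe set of Cyp4v3 reversed in TDPH against PH (-0.05). In SPH against PH, leaving out 1 SPH array gave -0.45 to 0.06 for Cyp2c12 and 0.17 to 0.66 for Cyp3a9. The cause was not tested.

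Calls of members were 2 in PH against sham, 2 in sham against normal, 0 in SPH against PH, 1 in VPH against PH, 1 in TDPH against PH, 0 in SPH against VPH, 0 in TDPH against SPH and 1 in TDPH against VPH. With no fold threshold these were 12, 15, 14, 9, 14, 15, 16 and 14 in that order, and at 1.5-fold 4, 4, 2, 3, 4, 2, 2 and 4. A pseudocount of 90 and a fit of only the groups compared each gave 1 in PH against sham and 0 in TDPH against PH. Quantile normalization gave 0 and centring 0 in TDPH against PH, and in TDPH against VPH they gave 2 and 0. Without the filter on dim probe sets 1 was called in SPH against VPH and 2 in TDPH against VPH. Leaving out each array in turn gave 1 to 2 calls in PH against sham, 2 in sham against normal, 0 to 2 in SPH against PH, 1 to 2 in VPH against PH, 0 to 1 in TDPH against PH, 0 to 1 in SPH against VPH, 0 to 2 in TDPH against SPH and 1 to 2 in TDPH against VPH. The fit without the SPH arrays, chosen after seeing the data, gave 2, 2, 1, 1 and 1 in the comparisons it allows. Of the gene results in those comparisons, 105 stayed the same and 8 gained the threshold.

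With the replicate block the calls were 2, 2, 0, 1, 1, 0, 0 and 1, the same counts. Same-numbered arrays did not deviate together, since in 0 of 15 pairs of groups were all correlations over 0.1.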

Other observations

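Other drug-metabolising enzymes moved between sham and normal. Of 18 tested, 9 rose and 2 fell in sham against normal, while 7.77% of all probe sets rose and 9.01% fell. Ephx2, a soluble epoxide hydrolase that acts on P450 epoxides, averaged 2074 ± 44.5 in sham and 668 ± 51.9 in normal (1.62, adjusted p = 5.43e-05, limma). In PH against sham 2 of the 18 rose and 5 fell, with none called. Of all probe sets 8.75% rose, 13.6% fell and 4.37% were called there. In TDPH against PH 3 rose and 4 fell, while 10.5% of all probe sets rose, 7.24% fell and 1.65% were called. Ephx2 was called lower there, at 372 ± 51.6 in TDPH and 1131 ± 80.4 in PH (-1.58, adjusted p = 0.000107, limma). In SPH against PH 2 rose and 2 fell (3 and 2 without SPH replicate 1), while 7.41% of all probe sets rose and 6.8% fell. In VPH against PH 1 rose and 3 fell, while 6.04% of all probe sets rose and 5.93% fell.

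VPH replicates 2 and 3 lay closer together than other arrays of a group, with a median absolute log2 difference of 0.117 over the tested probe sets, against 0.169 to 0.27 for the other pairs within groups. They held no identical values among them.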
